A study of Mus musculus with 24 samples.

Results

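The IFIT and IFITM genes of mouse colon carcinoma cells were followed across 8 lines of MC38. The members are the 4 IFIT genes *Ifit1*, *Ifit2*, *Ifit3* and *Ifit3b* and the 3 IFITM genes *Ifitm1*, *Ifitm2* and *Ifitm3*, which were listed by name and matched to their gene identifiers in the annotation. No threshold on their values was used, but the list was drawn up with earlier results of these data known. All 7 were found among the 52636 identifiers of the table and were followed in all 24 samples. Polyadenylated RNA of each sample was sequenced with a strand-marking kit, and the values are the authors' read counts per gene, scaled for library size and composition and rounded, here called normalized counts.

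MC38 is a colon carcinoma line of C57BL/6 mice, and 3 samples were taken from each line. MC38-WT is the unmodified line and was grown without puromycin, whereas the other 7 lines were modified and kept in puromycin. MC38-MOCK#1 carries the CRISPR-Cas9 system with no target gene and is the reference of the knockouts. In MC38-COSMC KO the target was COSMC, the product of *C1galt1c1*, a chaperone that T-synthase needs to extend the Tn antigen on O-glycans. In MC38-CMAS KO the target was CMAS, which activates sialic acid for its transfer to glycans, and in MC38-DKO both genes were targeted. MC38-MOCK#2 carries the activator CRISPR-dCas-VPR with no target gene and is the reference of the lines labelled MC38-FUT4 and MC38-FUT9, in which this activator was directed at a fucosyltransferase gene. The MC38-COSMC KO cells were sorted in bulk on lectin binding and are not a single clone. Per the methods, the mock line of the knockout was transfected with the empty construct. Whether the remaining modified lines are single clones is not given in the sources used here. Passages were 4 to 6 for MC38-MOCK#1 and the 3 knockout lines, 6 to 8 for MC38-MOCK#2 and MC38-FUT9, 7 to 9 for MC38-WT, and 7, 8 and 7 for samples 1, 2 and 3 of the line labelled MC38-FUT4. A difference in line between MC38-WT or MC38-MOCK#2 and MC38-MOCK#1 therefore cannot be told apart from passage, and for MC38-WT also not from puromycin. The same holds for passage and puromycin in MC38-COSMC KO against MC38-WT. Each genotype is held by a single line, so the effect of a modification cannot be told apart from other differences between lines.

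As background, the IFIT proteins are cytoplasmic proteins built of tetratricopeptide repeats. IFIT1 binds viral RNA that lacks the methylated cap of host messages, and IFIT2 and IFIT3 act with it in complexes and in the restriction of several viruses. The IFITM proteins are small membrane proteins of the cell surface and endosomes that hinder the fusion of enveloped viruses with host membranes, with IFITM3 acting mainly in late endosomes and IFITM1 nearer the surface. Genes of both families are induced by type I interferons: the receptor chains IFNAR1 and IFNAR2 signal through the kinases JAK1 and TYK2 to the factor ISGF3, which holds STAT2 and IRF9 and binds the interferon-stimulated response element (ISRE). Interferon gamma acts mainly through another element, GAS.

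The 4 IFIT genes lie together on chromosome 19 of GRCm38, all on the plus strand, within 99.3 kb. *Ifit2* (ENSMUSG00000045932) spans 34550694 to 34576419, *Ifit3* (ENSMUSG00000074896) 34583531 to 34588731, *Ifit3b* (ENSMUSG00000062488) 34607970 to 34613401 and *Ifit1* (ENSMUSG00000034459) 34640871 to 34650009. The 3 IFITM genes lie within 55.9 kb on chromosome 7. There *Ifitm2* (ENSMUSG00000060591) spans 140954837 to 140955987 on the minus strand, *Ifitm1* (ENSMUSG00000025491) 140967221 to 140969825 on the plus strand and *Ifitm3* (ENSMUSG00000025492) 141009586 to 141010770 on the minus strand.

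The DNA near the start sites is shown for the 4 members called in MC38-FUT9 below. Beside them stand *Ifit2* and *Ifit3*, which were not called there. In MC38-FUT9 against MC38-MOCK#2 the log2 difference of *Ifit2* was -0.25 (SE 0.185). That of *Ifit3* was -2.3 (SE 0.921), so *Ifit3* was not shown to be unchanged. The sequence is from RefSeq (GRCm38.p6), written 5′ to 3′ along the gene's strand. Capitals mark matches to the ISRE core, searched as GAAANNGAAA or, on the opposite strand, TTTCNNTTTC. The *Ifit1* stretch fills the gap between the start of the neighbouring gene *Ifit1bl2* and *Ifit1*, those of *Ifit2* and *Ifit3* lie between genes, and that of *Ifitm1* lies in an intron of a longer annotated transcript of that gene. For *Ifitm2* and *Ifitm3* only a short site around a match is shown, upstream of the annotated gene for *Ifitm2* and in its first exon for *Ifitm3*.
Ifit1, chr19:34640744-34640870, plus strand: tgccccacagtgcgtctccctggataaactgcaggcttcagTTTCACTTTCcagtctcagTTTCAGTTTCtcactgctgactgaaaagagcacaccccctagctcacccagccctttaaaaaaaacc
Ifit3, chr19:34583279-34583528, plus strand: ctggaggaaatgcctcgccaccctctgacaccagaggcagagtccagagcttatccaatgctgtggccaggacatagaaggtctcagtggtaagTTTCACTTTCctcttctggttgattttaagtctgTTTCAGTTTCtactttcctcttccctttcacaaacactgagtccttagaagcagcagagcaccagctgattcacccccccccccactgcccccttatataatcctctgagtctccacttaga
Ifit2, chr19:34550444-34550693, plus strand: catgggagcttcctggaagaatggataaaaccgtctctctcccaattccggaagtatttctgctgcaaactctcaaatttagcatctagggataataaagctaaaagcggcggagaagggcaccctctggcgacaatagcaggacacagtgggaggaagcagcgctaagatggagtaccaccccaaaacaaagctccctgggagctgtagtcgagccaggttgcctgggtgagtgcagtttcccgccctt
Ifitm1, chr7:140967826-140968027, plus strand: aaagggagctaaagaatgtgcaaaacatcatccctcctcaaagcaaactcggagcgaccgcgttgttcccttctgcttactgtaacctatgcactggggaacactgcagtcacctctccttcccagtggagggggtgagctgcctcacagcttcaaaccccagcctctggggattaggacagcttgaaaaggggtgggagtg
Ifitm2, chr7:140955988-140956017, minus strand: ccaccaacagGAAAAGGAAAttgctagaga
Ifitm3, chr7:141010723-141010752, minus strand: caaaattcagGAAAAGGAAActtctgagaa

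Within a window of 250 bases before and 50 bases after each RefSeq start, the ISRE core occurred in 1131 of 32851 mouse promoters, or 3.44%. *Ifit1* held 2 matches, at bases -104 to -95 and -85 to -76 from its start. *Ifit3* held 2 matches, at -156 to -147 and -122 to -113, and *Ifit3b* held 2 in the same surrounding sequence. The 250 bases before the starts of these 2 genes are identical at 216 of 218 aligned bases (99.1%), with 64 gap positions besides. *Ifitm2* held 1 match, at -46 to -37, and *Ifitm3* held 2, at bases 3 to 12 and 20 to 29 after its start. The first match of *Ifitm3* has the same letters as that of *Ifitm2*, and the second reads GAAACCGAAA. No match was found in the windows of *Ifit2* or *Ifitm1*, which says only that these letters are not in these windows. The GAS core, searched as TTCNNNGAA on both strands, occurred in 2726 windows (8.3%). Among the members it was found in *Ifit2*, at -241 to -233, and in *Ifitm3*, at 14 to 22, where it overlaps the second ISRE match. The *Ifit2* match belongs to the start whose stretch is printed above. The window of another RefSeq start of *Ifit2* held none.

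The samples held between 10911849 and 12263307 normalized counts in all, and between 18581 and 20838 genes above 0. From the rounding steps of the values, about 6759753 to 16232041 counted reads per sample were estimated, so that a single read amounts to 0.755 to 1.67 normalized counts and values below about 10 rest on few reads. *Cmas* lay between 93 and 142 in the lines in which it was targeted and at 272 or more in the others. *C1galt1c1*, which an indel need not lower at the RNA level, lay at 124 to 163 in MC38-COSMC KO, 166 to 206 in MC38-DKO and 152 to 251 elsewhere. *Fut9* lay at 641 to 955 in MC38-FUT9, but also at 171 to 209 in the line labelled MC38-FUT4, where *Fut4* itself was at 0 to 1, so the RNA of that line goes against its label. MC38 is a colon carcinoma line, but its 7 epithelial markers summed to only 0 to 19 per sample. Among them *Epcam* was at 0 to 3 and at 0 in 22 of 24 samples. Of 7 mesenchymal or fibroblast markers, *Vim* lay between 19787 and 33315 and *Pdgfra* between 401 and 1427. In the same list *Col1a2* lay between 4 and 131, and *Thy1* was at 0 in all samples. The 9 immune markers summed to 4 to 33 per sample, and the T cell marker *Cd3e* was at 0 in all.

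Between the families, levels per kb of transcript were far apart. Averaged over the 24 samples, *Ifitm3* stood at 3760 normalized counts per kb, *Ifitm2* at 1733 and *Ifitm1* at 492. The IFIT genes followed with 49.2 for *Ifit2*, 34.5 for *Ifit1*, 10.4 for *Ifit3* and 4.46 for *Ifit3b*. All 3 IFITM genes thus lay above all 4 IFIT genes on this scale. Reads cannot always be placed on a single member: of all words of 50 bases (the read length) in its transcripts, *Ifit3* shared 51.2% with *Ifit3b*, *Ifit3b* shared 45.0% with other genes and *Ifitm2* shared 48.5%, mostly with the gene model *Gm45717*. This share was 10.0% for *Ifitm3*, 7.13% for *Ifit1*, 5.02% for *Ifitm1* and 0 for *Ifit2*. *Gm45717* overlaps 268 of the 655 exon bases of *Ifitm2* on the same strand and is at 0 in every sample. Levels of *Ifit3*, *Ifit3b* and *Ifitm2* are therefore uncertain.

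To ask whether a member differed among the lines at all, the 8 line means were compared in a single test over all 24 samples (limma, moderated F). Of all 20944 genes tested, 48.2% were called at an adjusted p below 0.05, and so were 5 of the 7 members. The adjusted p was 1.72e-10 for *Ifitm1*, 5.01e-06 for *Ifitm3*, 7.75e-06 for *Ifit2*, 0.000334 for *Ifitm2* and 0.000364 for *Ifit1*. It was 0.601 for *Ifit3* and 0.527 for *Ifit3b*, which were low and varied widely between samples of a line. Because cultures were measured in bulk, fewer cells that express a gene and less RNA per cell cannot be told apart in any of these results.

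**Figure D1:**
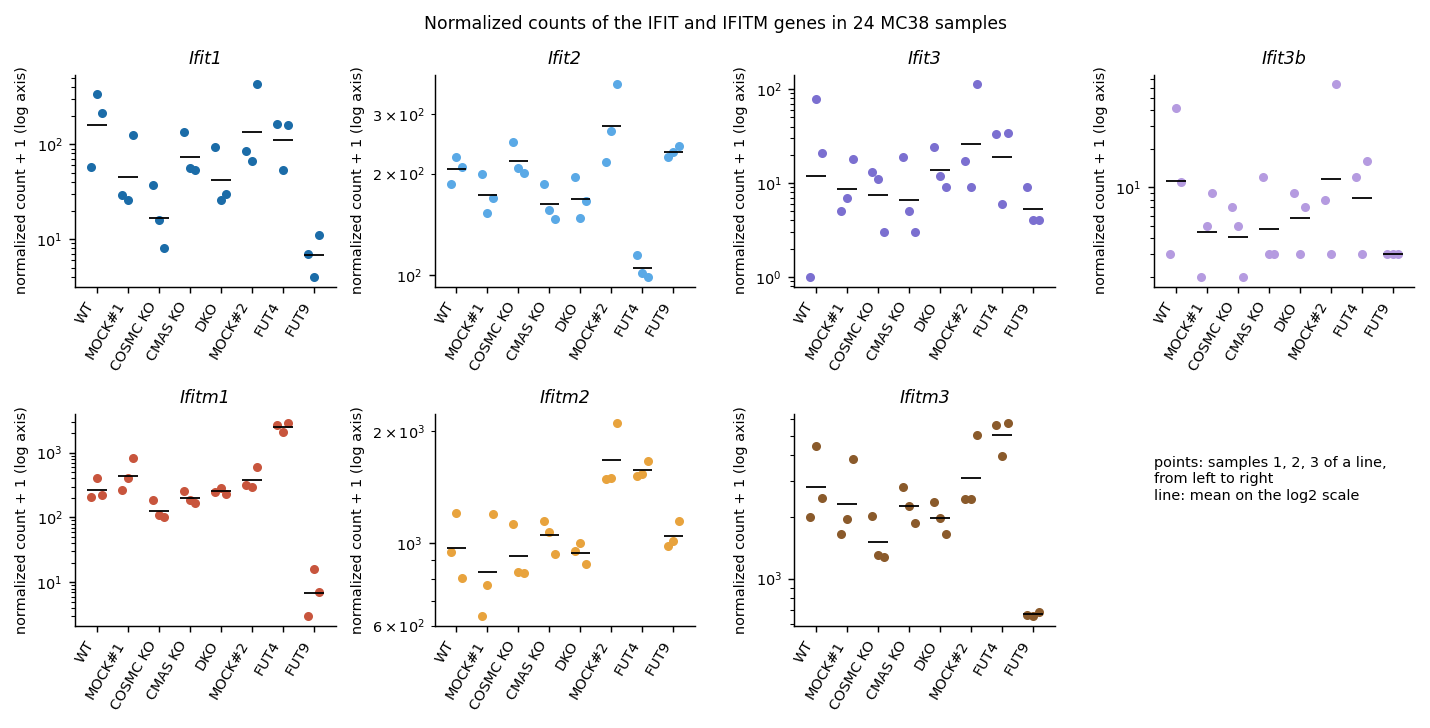
Normalized count plus 1 (log axis, a scale of its own for each gene) of the 7 genes in the 3 samples of each line, with the MC38- prefix of the line names left out; points are samples 1, 2 and 3 from left to right and the bar is the mean on the log2 scale. *Ifitm1* stands at 2069 to 2821 in the line labelled FUT4 and at 2 to 15 in FUT9, whereas *Ifit2* lies between 98 and 367 in all samples.

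*Ifitm1* had the widest range of the 7 genes between lines. It was measured at 2706, 2069 and 2821 in the line labelled MC38-FUT4 (2532 ± 405, SD, n = 3) and at 2, 15 and 6 in MC38-FUT9 (7.67 ± 6.66). Both lines stood clear of all others. The remaining 6 lines followed in the order MC38-MOCK#1 (261, 401 and 823), MC38-MOCK#2 (312, 293 and 607), MC38-WT (209, 411 and 222), MC38-DKO (248, 282 and 228), MC38-CMAS KO (257, 183 and 164) and MC38-COSMC KO (185, 110 and 101). Each of these lines overlapped with the next, so that their order is not resolved by 3 samples each.

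*Ifitm3*, the member best known for blocking influenza virus entry, was the most abundant of the 7 genes. MC38-FUT9 was the lowest line, with 666, 654 and 683 (668 ± 14.6, n = 3), and did not overlap with any other line. The line labelled MC38-FUT4 was the highest, with 5609, 3978 and 5732 (5106 ± 979). It overlapped with the next, MC38-MOCK#2 (2452, 2455 and 5021). Below followed MC38-WT (1993, 4454 and 2477), MC38-MOCK#1 (1656, 1949 and 3863), MC38-CMAS KO (2788, 2257 and 1860), MC38-DKO (2380, 1978 and 1659) and MC38-COSMC KO (2033, 1307 and 1277), each overlapping with its neighbour. The order of *Ifitm3* resembles that of *Ifitm1* at both ends.

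*Ifitm2* varied less, and its lines fell into 2 sets. It was highest in MC38-MOCK#2 (1483, 1493 and 2094; 1690 ± 350) and in the line labelled MC38-FUT4 (1514, 1534 and 1663; 1570 ± 80.9), the 2 of which overlapped. The other 6 lines had means between 868 and 1051, all of their samples lay between 635 and 1201, and each overlapped with the next. MC38-FUT9, which stood apart for *Ifitm1* and *Ifitm3*, had 979, 1009 and 1146 and sat within this lower set.

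*Ifit1*, whose product binds RNA without the methylated cap, differed widely both between and within lines. It was measured at 57, 336 and 214 in MC38-WT, at 83, 65 and 429 in MC38-MOCK#2 and at 163, 52 and 157 in the line labelled MC38-FUT4. Intermediate values were found in MC38-CMAS KO (133, 55 and 52), MC38-MOCK#1 (28, 25 and 124) and MC38-DKO (93, 25 and 29). MC38-COSMC KO (36, 15 and 7) and MC38-FUT9 (6, 3 and 10) were lowest, with means of 19.3 ± 15 and 6.33 ± 3.51. Every line overlapped with its neighbour in this order.

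*Ifit2*, which forms complexes with the other IFIT proteins, stayed within a narrow range and had an order of its own. The line labelled MC38-FUT4 was lowest, at 114, 101 and 98 (104 ± 8.5, n = 3), and was the only line that did not overlap with the line above it. MC38-MOCK#2 was highest, at 215, 267 and 367 (283 ± 77.3), and MC38-FUT9 came second, at 223, 231 and 241. In between lay MC38-COSMC KO (247, 207 and 200), MC38-WT (185, 223 and 209), MC38-MOCK#1 (199, 152 and 169), MC38-DKO (194, 147 and 165) and MC38-CMAS KO (186, 155 and 146). The 2 lines at the ends of the *Ifitm1* order thus held the lowest and the second highest mean of *Ifit2*.

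*Ifit3* and its close copy *Ifit3b* were low throughout, and single samples decided their line means. *Ifit3* reached 112 in sample 3 of MC38-MOCK#2 beside 16 and 8 in the other samples, and 77 in sample 2 of MC38-WT beside 0 and 20. *Ifit3b* was highest in the same samples, at 63 and 41. Elsewhere *Ifit3* ranged from 2 to 33 and *Ifit3b* from 1 to 15, with 8, 3 and 3 for *Ifit3* and 2, 2 and 2 for *Ifit3b* in MC38-FUT9. No line stood apart for either gene.

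MC38-FUT9, the line with the highest *Fut9* RNA, was compared with its reference MC38-MOCK#2. *Ifitm1*, *Ifitm3*, *Ifit1* and *Ifitm2* fell, *Ifitm1* 52.7-fold and *Ifit1* 30.4-fold, and no member rose. These folds are ratios of means, and sample 3 raised both MC38-MOCK#2 means. It was at 429 beside 83 and 65 for *Ifit1*, and at 607 beside 312 and 293 for *Ifitm1*. Of all 21480 genes tested, 24.1% were called and 12% were called lower, beside 4 of the 7 members. The median log2 difference of the 7 members was -2.22, and that of all genes was 0.01.

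For *Ifitm1* all 3 MC38-FUT9 samples, at 15 at most, lay below the lowest MC38-MOCK#2 sample, at 293 (log2 difference -5.78, SE 0.604, adjusted p = 0.00114). The 2 sample values below 10 rest on a few reads, so the size of the fold is less certain than its direction. *Ifitm3* was 4.96-fold lower (log2 -2.22, SE 0.267, adjusted p = 0.00186), with the highest MC38-FUT9 sample at 683 and the lowest MC38-MOCK#2 sample at 2452. Both calls held without any single sample and under every other setting tried.

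*Ifit1* fell by 4.31 on the log2 scale (SE 0.743, adjusted p = 0.00747), and its groups did not overlap, with 10 at most against 65 at least. Its call was lost without sample 1 (log2 -4.33, adjusted p = 0.0526) or sample 2 (log2 -3.93, adjusted p = 0.0548) of MC38-FUT9. *Ifitm2* fell 1.62-fold (log2 -0.68, SE 0.145, adjusted p = 0.0164), also without overlap, and lost its call without sample 1 (log2 -0.63, adjusted p = 0.0905), sample 2 (log2 -0.65, adjusted p = 0.0885) or sample 3 (log2 -0.75, adjusted p = 0.0558) of MC38-FUT9, and without the trend of variance with level (adjusted p = 0.0574). Samples that did not overlap and were lower in MC38-FUT9 were found for 18.2% of all genes. *Ifit2* was not called (log2 -0.25, SE 0.185, adjusted p = 0.379), and its MC38-FUT9 samples lay inside the range of MC38-MOCK#2. *Ifit3* (log2 -2.30, SE 0.921, adjusted p = 0.124) and *Ifit3b* (log2 -1.94, SE 1.03, adjusted p = 0.229) were not called either, and their groups overlapped.

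The line labelled MC38-FUT4 was compared with the same reference. *Ifitm1* rose 6.27-fold and *Ifit2* fell 2.71-fold, while the other 5 members were not called. Of all 21734 genes tested, 16.1% were called, 8.1% higher and 8.04% lower. The median log2 difference of the 7 members was -0.27, and that of all genes was 0.

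The lowest *Ifitm1* value of the line labelled MC38-FUT4, 2069, was above the highest of MC38-MOCK#2, 607 (log2 difference 2.71, SE 0.281, adjusted p = 0.00149). *Ifit2* showed the opposite, with 114 at most against 215 at least (log2 -1.40, SE 0.197, adjusted p = 0.00457). Groups that did not overlap were found for 16% of all genes in the higher and 16.1% in the lower direction. Both calls held without any single sample. The nearest IFITM neighbours of *Ifitm1* on the chromosome were not called: *Ifitm3* had a log2 difference of 0.69 (SE 0.296, adjusted p = 0.175) and *Ifitm2* one of -0.09 (SE 0.139, adjusted p = 0.736). Sample 3 of MC38-MOCK#2, the highest of its line for all 7 members, weighs on *Ifitm3*, which was called without it (log2 1.04, SE 0.179, adjusted p = 0.0273). *Ifit1* (log2 -0.27, adjusted p = 0.865), *Ifit3* (-0.45, adjusted p = 0.838) and *Ifit3b* (-0.47, adjusted p = 0.851) overlapped between the groups.

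The immune markers summed to 20 to 33 in the line labelled MC38-FUT4 and to 6 to 17 in MC38-MOCK#2, and the 3 endothelial markers to 6 to 19 against 2 to 7. *Cd3e* was at 0 in all of these samples, *Lyz2* was at 1 to 17 and *Cd79a* at 0 to 11 over the whole series. Whether any immune or endothelial cells were present was not tested, nor was a part of such cells in the *Ifitm1* result.

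The comparisons of MC38-FUT9 and of the line labelled MC38-FUT4 share their 3 reference samples. Both lines held *Fut9* RNA, at 641 to 955 in MC38-FUT9 and 171 to 209 in the other, against 0 to 1 in MC38-MOCK#2. Side by side, *Ifitm1* was called in both, with log2 differences of -5.78 and 2.71, while *Ifit2* was called in the line labelled MC38-FUT4 and *Ifit1*, *Ifitm2* and *Ifitm3* in MC38-FUT9.

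**Figure D2:**
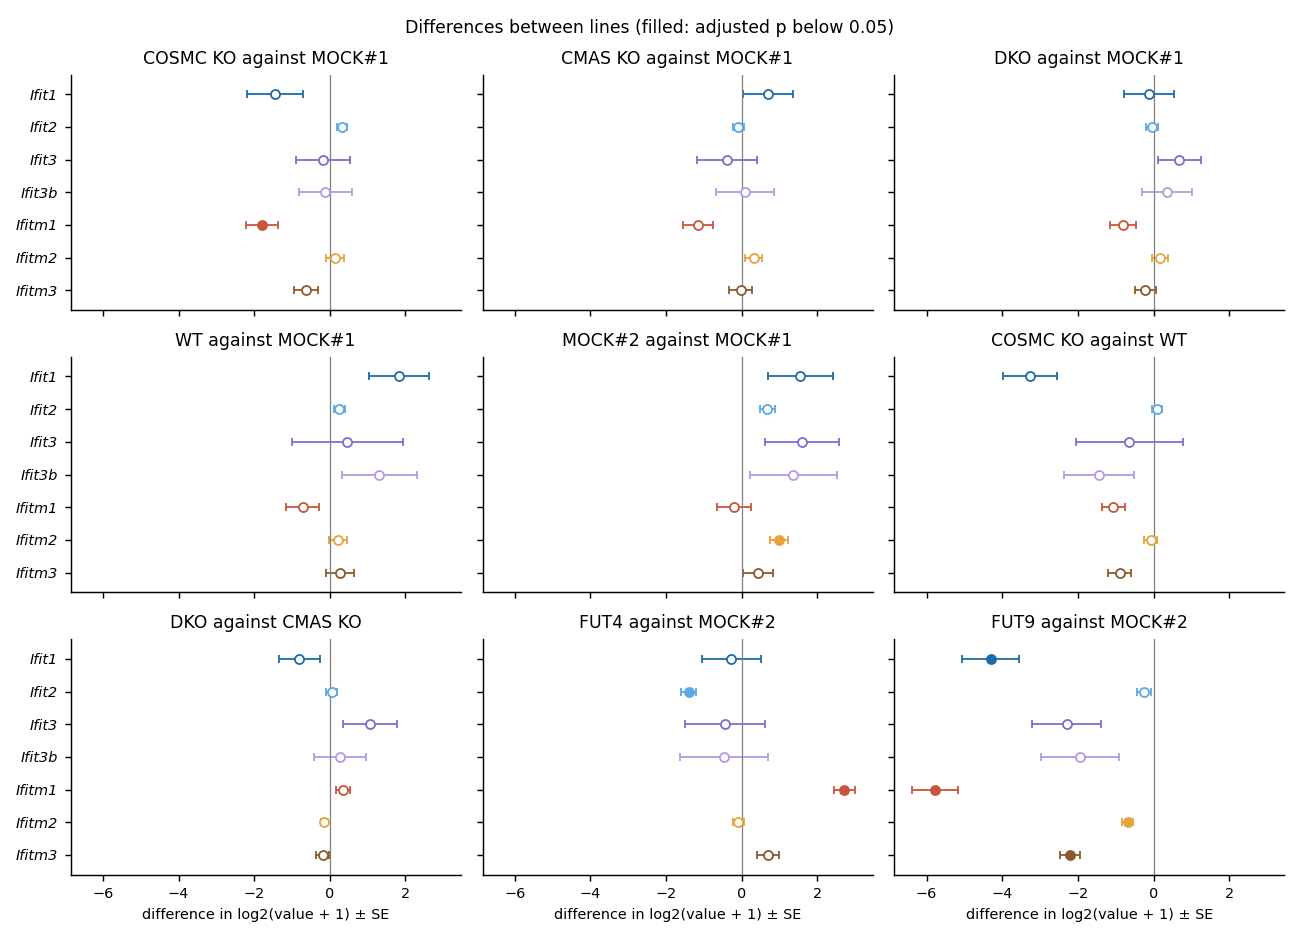
Difference in log2(normalized count + 1) between 2 lines, with its standard error, for the 7 genes in 9 comparisons of 3 samples against 3; filled points have an adjusted p below 0.05, and the MC38- prefix is left out. FUT9 against MOCK#2 holds 4 filled points, all below 0, FUT4 against MOCK#2 holds 1 on either side, and COSMC KO against MOCK#1 and MOCK#2 against MOCK#1 hold 1 each.

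Loss of COSMC was addressed by MC38-COSMC KO against MC38-MOCK#1. *Ifitm1* fell 3.75-fold and was the only member called. Of all 22172 genes tested, 11.6% were called and 5.39% were called lower. The median log2 difference of the members was -0.18, against 0 for all genes. The highest *Ifitm1* value of MC38-COSMC KO, 185, lay below the lowest of MC38-MOCK#1, 261 (log2 difference -1.79, SE 0.416, adjusted p = 0.0352). The call was lost without any one of the 6 samples (log2 -2.17 to -1.34, adjusted p 0.055 to 0.18), among them sample 3 of MC38-MOCK#1, the highest of its line at 823 (log2 -1.34, adjusted p = 0.0741). It was also lost without the trend of variance with level (adjusted p = 0.116).

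*Ifit2* samples were all higher in MC38-COSMC KO, at 200 to 247 against 152 to 199, but *Ifit2* was not called (log2 0.33, SE 0.135, adjusted p = 0.174). Such a separation in the higher direction was found for 14.2% of all genes, and in the lower direction, where *Ifitm1* lies, for 14.1%. *Ifit1* (log2 -1.44, SE 0.744, adjusted p = 0.279) and *Ifitm3* (log2 -0.63, SE 0.323, adjusted p = 0.278) were not called and overlapped with MC38-MOCK#1. For *Ifitm2* (0.14), *Ifit3* (-0.18) and *Ifit3b* (-0.12) the log2 differences were below their standard errors.

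Loss of CMAS gave no call among the 7 members (limma; 1 had an unadjusted p below 0.05), where 5.76% of all 22024 genes were called. *Ifitm1* came nearest, with all MC38-CMAS KO samples, at 257 at most, below those of MC38-MOCK#1 (log2 -1.16, SE 0.401, adjusted p = 0.152). A separation in this direction was found for 12.5% of all genes. The other members overlapped, with log2 differences from -0.38 for *Ifit3* to 0.69 for *Ifit1* and adjusted p from 0.448 to 0.993.

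MC38-DKO against MC38-MOCK#1 likewise gave no call among the members (limma; 1 with an unadjusted p below 0.05), where 0.092% of all 21738 genes were called. The *Ifitm1* samples of MC38-DKO, at 228 to 282, overlapped with those of MC38-MOCK#1 (log2 -0.81, SE 0.345, adjusted p = 0.644). The 3 comparisons of knockout lines share the MC38-MOCK#1 samples, and their *Ifitm1* differences of -1.79, -1.16 and -0.81 are therefore not independent.

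Against MC38-CMAS KO, which shares no sample with MC38-COSMC KO and MC38-MOCK#1, MC38-DKO had 0 of 7 members called (limma; 0 with an unadjusted p below 0.05), where 6.93% of all 21858 genes were called. *Ifitm1* was at 253 ± 27.3 in MC38-DKO and 201 ± 49.1 in MC38-CMAS KO (n = 3 each), a log2 difference of 0.35 (SE 0.176, adjusted p = 0.305). The effect of COSMC loss could thus be compared between cells with and without intact *Cmas*, though each genotype is a single line. The difference of the 2 effects was -2.14 on the log2 scale for *Ifitm1* (SE 0.467, adjusted p = 0.00448), which was the only member called, where 22.1% of all 21396 genes were called. The call held without any single sample (-2.51 to -1.69, adjusted p 0.000803 to 0.0153). For the other 6 members the difference of the effects ranged from -1.25 for *Ifit3* to 0.29 for *Ifitm2*, with adjusted p from 0.4 to 0.846.

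Among the control lines, MC38-WT against MC38-MOCK#1 gave 0 of 7 members called (limma; 0 with an unadjusted p below 0.05), where 5.51% of 21621 genes were called. *Ifit1* had the widest difference there, with 57, 336 and 214 against 28, 25 and 124 (log2 1.83, SE 0.792, adjusted p = 0.25). MC38-MOCK#2 against MC38-MOCK#1, the 2 references, gave *Ifitm2* as the only member called, where 11.3% of 21667 genes were called and 5.3% were called higher. It was 1.95-fold higher in MC38-MOCK#2, at 1483 to 2094 against 635 to 1196 (log2 0.99, SE 0.247, adjusted p = 0.0481). *Ifit2* samples did not overlap either, at 215 to 367 against 152 to 199, but were not called (log2 0.68, SE 0.207, adjusted p = 0.0843). A separation in the higher direction was found for 14% of all genes. The *Ifitm2* call was lost without 5 of the 6 samples, each in turn (log2 0.79 to 1.08, adjusted p 0.117 to 0.194), and kept without sample 3 of MC38-MOCK#1 (log2 1.25, adjusted p = 0.0359). It was also lost without the trend (adjusted p = 0.122) and with a pseudocount of 0.5 (adjusted p = 0.051).

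Against MC38-WT, MC38-COSMC KO had 0 of 7 members called (limma; 3 with an unadjusted p below 0.05), where 0.581% of 21843 genes were called. *Ifit1* was at 7 to 36 against 57 to 336 (log2 -3.26, SE 0.717, adjusted p = 0.105) and *Ifitm1* at 101 to 185 against 209 to 411 (log2 -1.07, SE 0.306, adjusted p = 0.182), without overlap in either gene. A separation in the lower direction was found for 7.87% of all genes. *Ifitm3* overlapped by a single sample of MC38-WT (log2 -0.90, SE 0.293, adjusted p = 0.226).

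Samples of the same line differed widely for several members. The pooled SD within lines, on the log2 scale, was 1.63 for *Ifit3*, 1.34 for *Ifit3b*, 1.1 for *Ifit1*, 0.632 for *Ifitm1* and 0.436 for *Ifitm3*, where the median gene with a mean of at least 10 had 0.163. *Ifitm2* (0.249) and *Ifit2* (0.2) were nearer to that median. Between-line differences made up 94.9% of the variance of *Ifitm1*, 85.4% for *Ifit2*, 83.4% for *Ifitm3*, 73.9% for *Ifitm2* and 72.9% for *Ifit1*, but 26.6% for *Ifit3b* and 23.5% for *Ifit3*, with a median of 67.6%.

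Within a line, the members tended to be high in the same sample. Sample 2 of MC38-WT, sample 1 of MC38-COSMC KO, sample 1 of MC38-CMAS KO and sample 3 of MC38-MOCK#2 were the highest of their lines for all 7 members, and sample 3 of MC38-MOCK#1 for all but *Ifit2*. The sum of 34 other antiviral interferon-stimulated genes was also highest there, at 19924 in sample 2 of MC38-WT beside 7098 and 11801, and at 24515 in sample 3 of MC38-MOCK#2 beside 10201 and 8953. In MC38-FUT9 this sum lay at 4505, 4386 and 4198, below all other samples. With line means subtracted, log2 levels over the 24 samples correlated with r = 0.895 between *Ifit1* and *Ifitm3*, 0.885 between *Ifitm2* and *Ifitm3* and 0.684 between *Ifit1* and *Ifit2*. These are descriptions, since the 2 values of a sample share a library. For *Ifit3* and *Ifit3b* (r = 0.908) they also share reads.

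**Figure D3:**
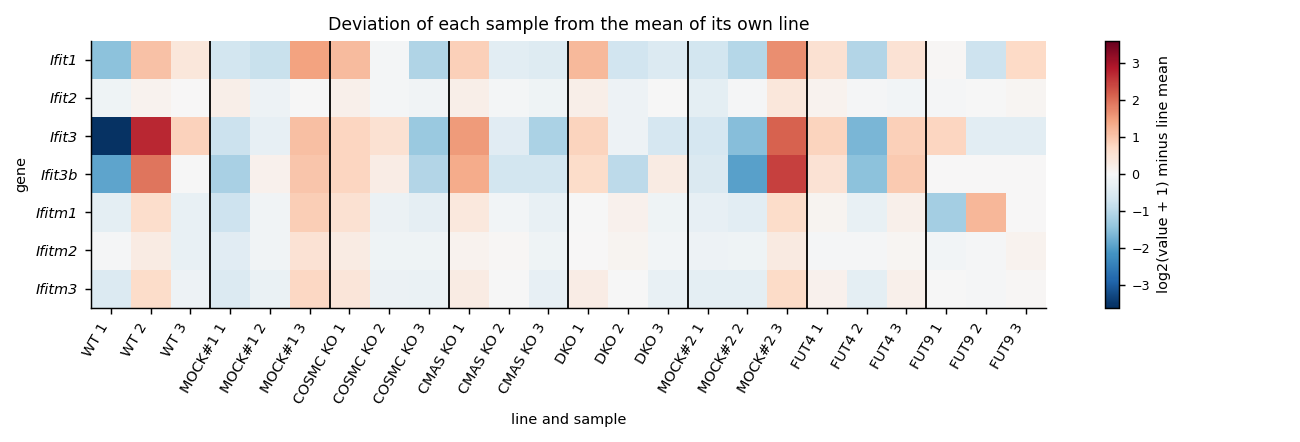
Deviation of log2(normalized count + 1) of each sample from the mean of its own line, for the 7 genes (vertical) and 24 samples (horizontal, MC38- prefix left out); red is above and blue below the line mean. Deviations run from -3.56 to 2.73, both for *Ifit3* in WT, and sample 3 of MOCK#2 is red in all 7 genes.

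Across lines *Ifit2* parted from the others. In the line labelled MC38-FUT4, *Ifit1* stood at 52 to 163 with *Ifit2* at 98 to 114, while in MC38-FUT9 *Ifit1* stood at 3 to 10 with *Ifit2* at 223 to 241. Over all 24 samples the log2 levels of *Ifit1* and *Ifit2* had r = -0.0721, in contrast to 0.684 within lines, and those of *Ifit2* and *Ifitm1* had r = -0.517, in contrast to 0.333 within lines. The values over all samples rest on a few lines that form separate clusters, and are given only to describe the plot.

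**Figure D4:**
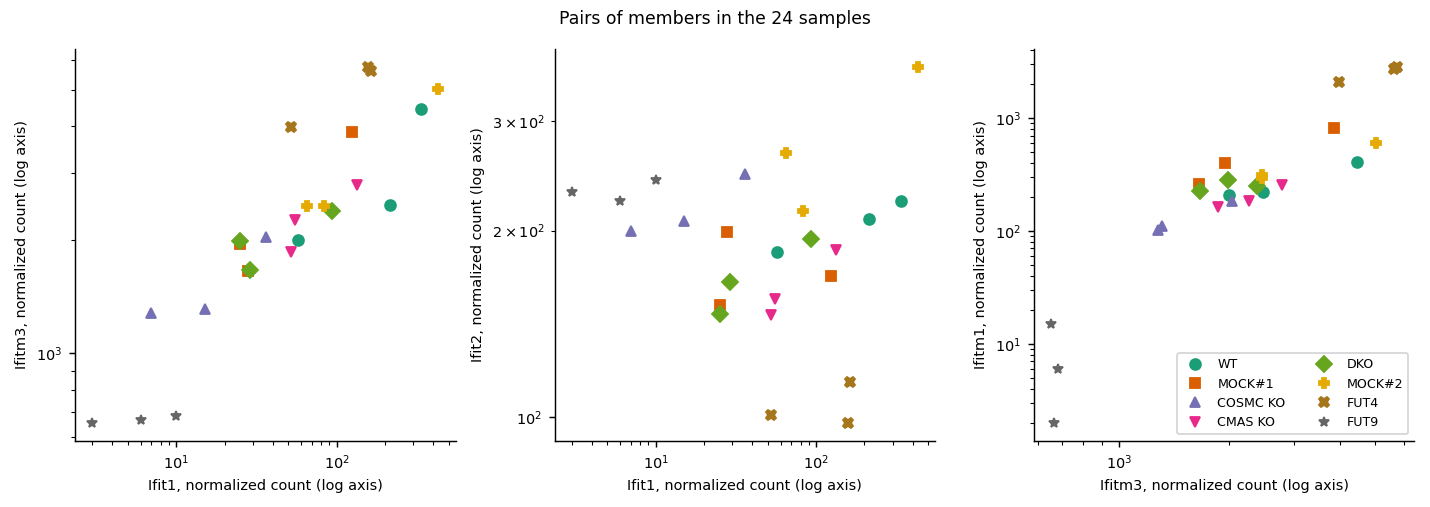
Normalized counts (log axes) of *Ifit1* and *Ifitm3*, *Ifit1* and *Ifit2*, and *Ifitm3* and *Ifitm1* in the 24 samples, with a symbol for each line and the MC38- prefix left out. FUT4 samples lie at the bottom of the *Ifit2* axis (98 to 114) and at the top of the *Ifitm1* axis (2069 to 2821), and FUT9 samples lie apart at 654 to 683 for *Ifitm3*.

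The genes whose log2 levels followed each family most closely over the 24 samples were searched among 13500 genes with a mean of at least 10. For the mean of the IFIT genes they were *Slfn9* (r = 0.921), *Siae* (0.891), *Rnf213* (0.889), *Trim21* (0.875) and *Spg11* (0.873). For the IFITM genes they were *Aldh1l1* (0.937), *Slc25a11* (0.920), *Fdft1* (0.919), *Casp6* (0.919) and *Psme2* (0.919). After removal of line means r was between 0.891 and 0.940 for the 5 genes of the IFIT list. For the IFITM list it was 0.918 for *Aldh1l1*, 0.881 for *Psme2*, 0.787 for *Slc25a11*, 0.666 for *Casp6* and 0.604 for *Fdft1*.

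The remaining genes of the pathway give the setting. The ligands were barely measured: of 11 interferon genes none exceeded 7 normalized counts, and *Ifnb1*, encoding interferon beta, was at 0 or 1. *Ifne* was called higher in MC38-COSMC KO, at 1 to 3 against 0 in all MC38-MOCK#1 samples, which is a matter of single reads. The receptor chain gene *Ifnar1* lay at 484 to 527 in MC38-FUT9 and at 384 to 525 in MC38-MOCK#2 and was not called. Among 9 receptor and kinase genes, 8 were tested and 2 fell in MC38-FUT9, where 12% of all genes were called lower: *Tyk2*, the kinase bound to IFNAR1 (log2 -1.26, adjusted p = 0.00203), and *Il10rb*, a shared chain of the interferon lambda receptor (log2 -0.64, adjusted p = 0.0111). In the line labelled MC38-FUT4 only *Jak2* was called (log2 -0.49, adjusted p = 0.0248).

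Of the transcription factors, 4 were called lower in MC38-FUT9 than in MC38-MOCK#2 and none higher, where 12% of all genes were called lower. *Irf7*, which amplifies interferon production, had a mean of 4.33 against 141 (log2 -4.26, adjusted p = 0.0262). *Stat2*, a subunit of ISGF3, had one of 242 against 855 (log2 -1.64, adjusted p = 0.0233). Single samples raised these MC38-MOCK#2 means. *Irf7* was at 352 beside 30 and 41, and *Stat2* at 1473 beside 472 and 619. *Irf1* was lower in MC38-COSMC KO (log2 -0.66, adjusted p = 0.00234) and MC38-CMAS KO (log2 -0.64, adjusted p = 0.0106) than in MC38-MOCK#1, and higher in MC38-DKO than in MC38-CMAS KO (log2 0.56, adjusted p = 0.03).

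Of the 34 other antiviral interferon-stimulated genes, 28 of 33 tested fell in MC38-FUT9 and none rose, where 12% of all genes were called lower. The list median was -3.71, or -3.6 with *Zbp1*, at 0 in all MC38-FUT9 samples, set to a floor of 3 counts per sample, against 0.01 for all genes. *Lgals3bp*, a secreted glycoprotein, had a mean of 11 against 1234 (log2 -6.45) and *Ifi44* one of 3.33 against 290 (log2 -5.42). Both MC38-MOCK#2 means were raised by a single sample, at 2343 beside 598 and 760 for *Lgals3bp* and 701 beside 68 and 101 for *Ifi44*. Without 1 sample of MC38-FUT9 10 to 14 genes were called, and without 1 of MC38-MOCK#2 21 to 27.

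In MC38-COSMC KO 11 of 32 tested genes of this list were lower than in MC38-MOCK#1 and none higher, beside 5.39% of all genes (median -1.51), led by *Oas3* (log2 -2.43) and *Cmpk2* (log2 -2.31). Leaving out any one of the 6 samples left between 0 and 4 calls, with 4 without sample 3 of MC38-MOCK#1 or without sample 1 of MC38-COSMC KO. There was 1 call without the trend of variance with level, and a single fit of all 8 lines gave 5, whereas 17 of 29 were called when only genes with a mean of at least 10 were tested. In MC38-CMAS KO 4 of 32 were lower, beside 2.73% of all genes (median -0.87), led by *Oas1a* (log2 -2.64) and *Oas3* (log2 -2.40), with 0 to 2 without 1 sample, 0 without the trend and 8 of 28 among genes with a mean of at least 10. In MC38-DKO 0 of 32 were called against MC38-MOCK#1 (median -0.68), and 3 of 32 were higher than in MC38-CMAS KO, beside 3.15% of all genes (median 0.33), among them *Bst2* (log2 0.45) and *Isg20* (log2 0.40), with 0 or 1 without any one sample and 0 without the trend. The difference of the 2 effects of COSMC loss was called for 16 of 32, all lower, beside 11.1% of all genes (8 to 20 without 1 sample). It was called for 4 with all 8 lines in a single fit and for 7 without the trend. None was called in the line labelled MC38-FUT4 (of 33, median -0.25), in MC38-WT (of 32, median -0.16) or MC38-MOCK#2 (of 33, median -0.04) against MC38-MOCK#1, or in MC38-COSMC KO against MC38-WT (of 32, median -1.49).

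Of 16 genes mainly of the response to interferon gamma, 10 of 14 tested fell in MC38-FUT9, beside 12% of all genes (median -3.09, or -3.01 with the 3 genes at 0 in a line set to the floor). The largest differences were in *Nlrc5*, the activator of MHC class I genes (log2 -4.11), and *Gbp2*, a guanylate-binding protein (log2 -3.78). *Nlrc5* was also lower in MC38-COSMC KO (log2 -1.38), MC38-CMAS KO (log2 -0.96) and MC38-WT (log2 -1.83) than in MC38-MOCK#1, and higher in MC38-DKO than in MC38-CMAS KO (log2 0.89). Beyond these, *Psmb9* was lower in MC38-COSMC KO (log2 -1.51) and *Gbp2* in the line labelled MC38-FUT4 (log2 -1.93), and 5 of 14 tested were called in the difference of the effects of COSMC loss, all lower, beside 11.1% of all genes. All of these lists were assembled with earlier results of these data known.

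**Figure D5:**
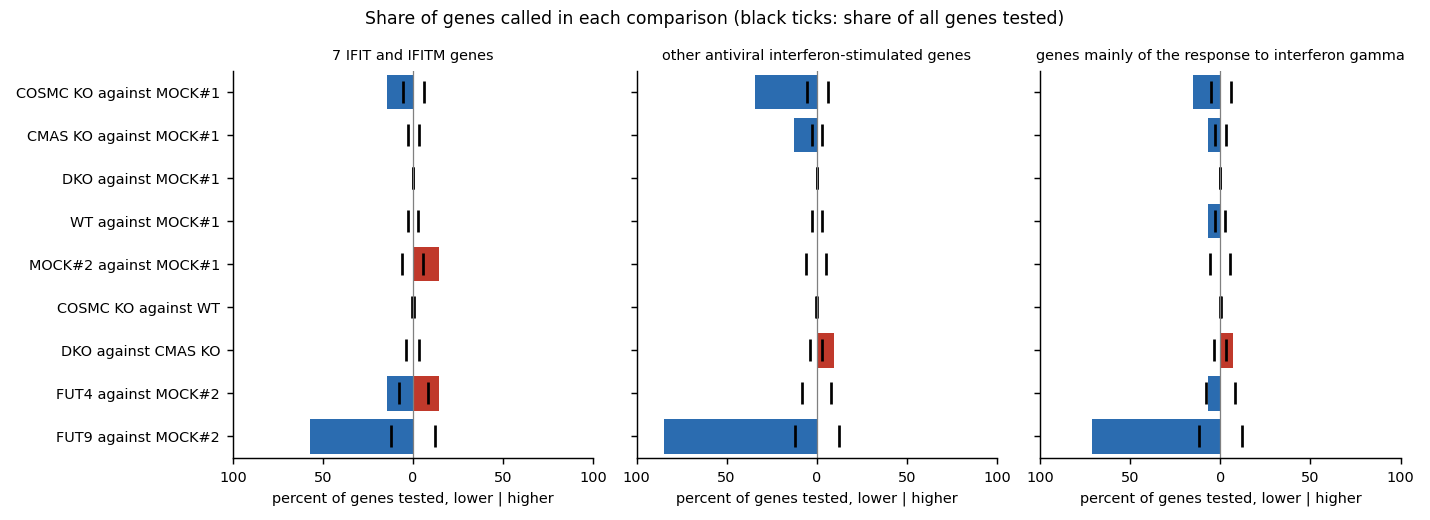
Percent of tested genes called lower (blue, left) and higher (red, right) in each of the 9 comparisons, for the 7 IFIT and IFITM genes, the antiviral list and the interferon gamma list; black ticks mark the percent of all genes tested. In FUT9 against MOCK#2 4 of 7, 28 of 33 and 10 of 14 genes were called lower, beside a tick at 12%.

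Other genes of the families were close to 0: *Ifit1bl1* was at 0 to 8, *Ifit1bl2* and *Ifitm5* at 0 to 12, *Ifitm6* at 0 to 11, and *Ifitm7* and *Ifitm10* at 0 to 3. Of these, *Ifit1bl2* was called lower in MC38-FUT9 (log2 -2.36) and *Ifitm5* higher in MC38-MOCK#2 than in MC38-MOCK#1 (log2 1.48), both on a few counts. Among 10 genes that flank the clusters, *Ano9*, a scramblase gene 90.4 kb from the IFITM genes, had means of 4 in MC38-FUT9 and 183 in MC38-MOCK#2 (log2 -5.21, adjusted p = 9.09e-05). It was also lower in the line labelled MC38-FUT4 (log2 -1.70), where *Ifitm1* was higher, and lower in MC38-COSMC KO (log2 -2.19), MC38-CMAS KO (log2 -1.95) and MC38-WT (log2 -2.22) than in MC38-MOCK#1. *B4galnt4*, 50.3 kb from the cluster, fell in MC38-FUT9 (log2 -2.24) and *Pkp3*, between it and *Ano9*, rose (log2 1.79). In all, 4 of 9 tested neighbours were lower in MC38-FUT9, beside 12% of all genes, and 1 was higher. On the side of the IFIT genes, *Lipa* was called lower in the line labelled MC38-FUT4 (log2 -0.39), as *Ifit2* was.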

How the data were processed

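RNA of 24 samples of 8 MC38 lines, 3 per line, was analysed, with groups and sample numbers taken from the sample labels. Per the methods, the authors trimmed single-end reads with Sickle, aligned them to GRCm38 with HISAT2 2.0.4, processed them with SAMtools 0.1.19 and counted them per gene with featureCounts (Subread 1.5.0-p3), excluding reads that overlap several genes. The strand setting of the counting is not given in the sources used here. The authors adjusted the counts for library size and TMM with edgeR 3.18.1. The table they deposited holds whole numbers with near-equal totals, recorded here as a score, since they are normalized, rounded values and not raw counts; no count model was fitted to them.

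Each pair of lines was compared with the moderated test of limma 3.58.1 (R 4.3.3, mean-variance trend, two-sided) on log2(normalized count + 1). All differences are on this scale, which understates those of low genes, whereas fold values are ratios of mean normalized counts. A gene entered a test of 6 samples if at most 4 of them were at 0 (at most 8 of 12 for the difference of effects and 16 of 24 for the test over all lines). The adjusted p (Benjamini-Hochberg) covers all genes tested and not the members alone, and a gene was called below 0.05. Samples of a line differ in passage, apart from samples 1 and 3 of the line labelled MC38-FUT4, and the methods describe harvests of lines at passages 4 to 6 as separate in time and passage. For the lines at later passages nothing else says that samples are separate cultures, so p-values measure the spread between these samples, which may in part be technical.

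The members and lists were chosen with earlier results of these data known. Named genes are the 7 members, the 5 genes most like each family, and from each list at most the 2 called genes with the largest difference in each direction; *Ifnb1*, *Ifnar1* and the marker and target genes were named besides as checks. The lists were 34 antiviral genes, 16 of the interferon gamma response, 9 receptors and kinases, 11 interferons, 6 other family members and 10 neighbours, besides transcription factors of the pathway, whose count is not reported here. The script for the tests was tested on simulated data. Alternatives were 2 other pseudocounts (5 and 0.5), no filter, a mean of at least 10, 2 other scalings, all 8 lines in a single fit, moderation without the trend, a block for the replicate number, an absolute log2 difference above 1, and leaving out each sample; those for the antiviral list were added after the data had been seen. Sequence work used Python 3.11.15, numpy 2.4.6, pandas 2.3.3 and Biopython 1.88, and plots matplotlib 3.10.9. Transcript lengths and positions come from the GRCm38 annotation. No counts of unplaced reads were used, and no protein sequence was used here.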

Additional observations from a re-analysis of the deposited data

Results flagged for a closer look

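*Ifitm1* was singled out because the effect of COSMC loss on it differed between cells with and without intact *Cmas*, by a test of the difference itself. Mean normalized counts were 132 in MC38-COSMC KO and 495 in MC38-MOCK#1, but 253 in MC38-DKO and 201 in MC38-CMAS KO. The difference of the 2 effects was -2.14 on the log2 scale (SE 0.467, limma, adjusted p = 0.00448), and it lay between -2.51 and -1.69 without any single sample. The 4 lines share passages 4 to 6. Each genotype is a single line, so this difference cannot be told apart from other differences between these lines. In the same contrast 16 of 32 antiviral genes were called lower, beside 11.1% of all genes, but 4 with all 8 lines in a single fit and 7 without a trend. Without sample 3 of MC38-MOCK#1, the highest of the 12 samples at 823, the difference was -1.69.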

How the results depend on the processing

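Apart from leaving out a sample, the alternatives left 735 values of members on the same side of the threshold, moved 8 to the weaker and 4 to the stronger side, and turned no direction. For MC38-COSMC KO against MC38-MOCK#1 the number of members called went from 1 to 0 without a trend and to 0 with the replicate number as a block. For MC38-MOCK#2 against MC38-MOCK#1 it went from 1 to 0 with a pseudocount of 0.5, without a trend and with an absolute log2 difference above 1, to 2 with all 8 lines in a single fit and to 3 with the block. It became 1 for MC38-COSMC KO against MC38-WT with all 8 lines in a single fit (*Ifit1*, adjusted p = 0.0199), and 1 instead of 2 for the line labelled MC38-FUT4 with the block (*Ifit2*, adjusted p = 0.0561). For MC38-FUT9 against MC38-MOCK#2 the *Ifitm2* call (log2 -0.68) was lost without a trend and with an absolute log2 difference above 1. Leaving out a sample gave 0 members called for MC38-COSMC KO against MC38-MOCK#1, 0 to 1 for MC38-MOCK#2 against MC38-MOCK#1, 2 to 4 for MC38-FUT9, 2 to 3 for the line labelled MC38-FUT4 and 1 to 2 for the difference of effects. The causes were not tested.

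Pairing of same-numbered samples was looked at by correlating their deviations from the line means over 13515 genes. These correlations ran from -0.213 to 0.254, and in no comparison was every pair above 0.1. In 3 comparisons (MC38-MOCK#2 against MC38-MOCK#1, MC38-DKO against MC38-CMAS KO and MC38-FUT9 against MC38-MOCK#2) each sample correlated best with its own number. In the labels equal numbers mark equal passages among MC38-MOCK#1 and the 3 knockout lines and between MC38-FUT9 and MC38-MOCK#2, but not a shared harvest. With the replicate block, antiviral genes called went from 11 to 0 for MC38-COSMC KO and from 4 to 0 for MC38-CMAS KO, and calls over all genes went from 2563 to 4 for MC38-COSMC KO, 1268 to 1 for MC38-CMAS KO, 20 to 0 for MC38-DKO and 1192 to 0 for MC38-WT (each against MC38-MOCK#1), 127 to 0 for MC38-COSMC KO against MC38-WT, 1515 to 795 for MC38-DKO against MC38-CMAS KO and 3509 to 1756 for the line labelled MC38-FUT4. With all 8 lines in a single fit they went from 1268 to 2207, 20 to 159, 1192 to 2981, 127 to 945 and 1515 to 2403 for MC38-CMAS KO, MC38-DKO, MC38-WT (against MC38-MOCK#1), MC38-COSMC KO against MC38-WT and MC38-DKO against MC38-CMAS KO, and from 2454 to 3976 for MC38-MOCK#2 against MC38-MOCK#1.

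In 26 of the comparisons of single members, none of them called (adjusted p of at least 0.721 and log2 differences of at most 0.64 in size), leaving out a sample turned the sign. For MC38-COSMC KO against MC38-MOCK#1 the log2 difference then ran from -0.06 to 0.39 for *Ifitm2*, -0.58 to 0.48 for *Ifit3* and -0.70 to 0.40 for *Ifit3b*. For MC38-CMAS KO it ran from -0.19 to 0.01 for *Ifit2*, -1.15 to 0.19 for *Ifit3*, -0.58 to 0.59 for *Ifit3b* and -0.27 to 0.34 for *Ifitm3*. For MC38-DKO it ran from -0.70 to 0.61 for *Ifit1*, -0.14 to 0.06 for *Ifit2*, -0.23 to 0.86 for *Ifit3b*, -0.03 to 0.43 for *Ifitm2* and -0.47 to 0.14 for *Ifitm3*. For MC38-WT it ran from -0.90 to 2.24 for *Ifit3* and -0.06 to 0.64 for *Ifitm3*, and for MC38-MOCK#2 from -0.59 to 0.24 for *Ifitm1*. For MC38-COSMC KO against MC38-WT it ran from -0.01 to 0.14 for *Ifit2*, -2.42 to 0.72 for *Ifit3* and -0.22 to 0.07 for *Ifitm2*, and for MC38-DKO against MC38-CMAS KO from -0.05 to 0.15 for *Ifit2* and -0.06 to 0.94 for *Ifit3b*. For the line labelled MC38-FUT4 it ran from -0.77 to 0.58 for *Ifit1*, -1.21 to 0.61 for *Ifit3*, -1.44 to 0.76 for *Ifit3b* and -0.17 to 0.08 for *Ifitm2*, and for the difference of effects from -1.19 to 0.10 for *Ifit1* and -1.06 to 0.13 for *Ifit3b*.

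Leaving out 1 sample, with fewer samples to test, lowered calls over all genes to 675 to 2137 for MC38-COSMC KO, 122 to 876 for MC38-CMAS KO, 0 to 4 for MC38-DKO, 31 to 693 for MC38-WT and 632 to 1737 for MC38-MOCK#2 (all against MC38-MOCK#1, each fewest without sample 2 of MC38-COSMC KO or of MC38-MOCK#1, apart from MC38-DKO), 0 to 21 for MC38-COSMC KO against MC38-WT, 231 to 761 for MC38-DKO against MC38-CMAS KO, 1621 to 3112 for the line labelled MC38-FUT4 and 3089 to 5065 for MC38-FUT9, so the shares of all genes set beside the members' counts vary as well. With 3 samples per line and the wide spread of *Ifit1*, *Ifit3* and *Ifit3b*, a p above the threshold does not show that lines were alike. With an absolute log2 difference above 1, calls over all genes went down to 828, 580, 651 and 1064 for MC38-COSMC KO, MC38-CMAS KO, MC38-WT and MC38-MOCK#2 against MC38-MOCK#1, to 591 for MC38-DKO against MC38-CMAS KO, to 1447 and 1823 for the line labelled MC38-FUT4 and MC38-FUT9 (from 3509 and 5166) and to 1982 for the difference of effects (from 4736). Without a trend they were 1135, 726, 40, 717 and 1389 for MC38-COSMC KO, MC38-CMAS KO, MC38-DKO, MC38-WT and MC38-MOCK#2 against MC38-MOCK#1, 692 for MC38-DKO against MC38-CMAS KO, 2270 for the line labelled MC38-FUT4 and 3430 for MC38-FUT9. Values below about 10 rest on few reads, which touches *Ifit3*, *Ifit3b*, and *Ifit1* and *Ifitm1* in MC38-FUT9.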

Other observations

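In the line labelled MC38-FUT4, samples 1 and 3 are both given as passage 7. Their values were the closest of the 24 pairs of samples of the same line, with a chi-square per gene of 5.69 in the mean and 0.714 in the median over 12310 genes, where the means of the other pairs lay between 7.8 and 33. Whether they are separate harvests was not tested. They were counted as separate samples, and the *Ifitm1* and *Ifit2* calls of this line held without either of them. For *Ifitm1* they were at 2706 and 2821 with sample 2 at 2069, and for *Ifit1* at 163 and 157 with sample 2 at 52.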
